A study of Mus musculus with 2 samples.

Results

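The 10 genes described here encode the core of cytokine signalling through Janus kinases: the kinases Jak1, Jak2 and Tyk2, the transcription factors Stat3, Stat5a and Stat5b, and the feedback inhibitors Socs1, Socs2, Socs3 and Cish. They were chosen by name from the 21887 protein-coding genes of the annotation. For each gene, the listed regions of open chromatin that touched the gene body or the 50 kb on either side were collected, and those within 1 kb of an end of the gene (gene-end regions) were kept apart from the others. The assay was ATAC-seq, which reads accessible DNA from where a transposase can insert, on CD48-CD150+LSK hematopoietic stem cells from the bone marrow of wild-type C57BL/6J mice. The H1C group carried an MSCV retrovirus with H1C, a linker histone whose gene is now named H1f2, and the control group carried the empty pMSCV retrovirus. Each group was 1 library of about 1000 cells, so no difference has a replicate check and no test between the groups was possible. The labels do not give the age of the mice, how many were pooled, or the time after transduction.

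When a cytokine binds its receptor, Janus kinases held on the receptor tails phosphorylate each other and the receptor, and STAT proteins dock there, are phosphorylated, pair up and move to the nucleus. STAT pairs bind the gamma-activated site TTCNNNGAA and switch on, among others, the SOCS genes and Cish, whose products then block the kinases or the docking sites. In blood stem cells this circuit carries the signal of thrombopoietin, through Jak2 and the STAT5 proteins, which supports stem cell maintenance.

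The H1C list held 13012 regions on chromosomes 1 to 19, X and Y and the control list held 31843. The strength of a region is given here as its summit pileup, the number of fragments or reads stacked at its highest point, which was worked out from the fold and −log10 p that the authors gave each region. The genome-wide background was 4.40 per position in H1C and 3.99 in control, and ratios of H1C to control were divided by the ratio of these values, 1.103. In a bulk sample, fewer cells with an open site and a site that is less open in each cell cannot be told apart. With 1 library per group, a difference made by H1C and one between the libraries as a whole cannot be told apart either. At the H1f2 gene 2 gene-end regions were listed in H1C and 1 in control, and those compared had summit pileups of 43 in H1C and 72 in control. Reads from this gene and from the H1C retrovirus were not told apart. Of 15 stem cell marker genes, 2 had a gene-end region in H1C (Mllt3 and Ctnnal1) and 7 in control (also Slamf1, Kit, Ly6a, Hlf and Meis1), against 46.9% of all protein-coding genes in control. Among the others, Procr, Mecom, Gata2, Fgd5, Hoxb5, Tie1 and Cd34 had none in either list. Of the markers of other cells, gene-end regions were listed in H1C and control for 1 and 2 of 7 myeloid genes, 0 and 1 of 7 erythroid and megakaryocyte genes, 1 and 5 of 7 lymphoid genes, and 0 and 2 of 5 endothelial and stromal genes. The part of other cell types in the values given here was not tested.

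Most of the kinase, STAT and inhibitor genes kept an accessible start in H1C cells, but every shared gene-end region had a lower summit pileup there. A gene-end region was listed for 8 of the 10 genes in H1C and for 9 of 10 in control, where 46.9% of all protein-coding genes had one. All 8 were among the 9, so the gene-end region was kept at 8 of 9 genes (88.9%, exact Clopper-Pearson 95% interval 51.8 to 99.7), against 71.0% over all genes. For Socs2 a gene-end region was listed only in control, and Stat5b had none in either list, because its accessible start lies well inside the annotated span of the gene. Region by region, 9 of the 12 control gene-end regions were shared (75%, 42.8 to 94.5), against 62.9% of all control gene-end regions. Shared here means overlap by at least 1 bp, and all such intervals cover counting error only. All 9 H1C gene-end regions were shared, against 97.9% over all genes. A region not listed in H1C did not reach the authors' calling threshold there, which does not show that the site was closed.

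**Figure D1:**
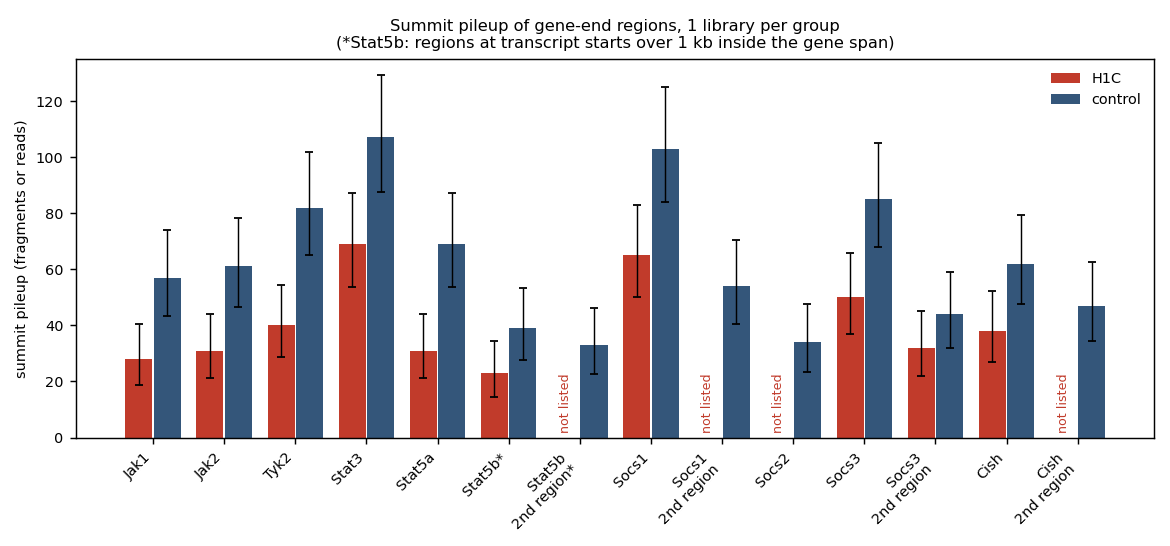
Summit pileup (y axis, fragments or reads) of each gene-end region of the 10 genes, and of the regions at the Stat5b transcript starts, with H1C left (red) and control right (blue); bars are single libraries and error lines are exact Poisson 95% intervals for counting error. Every H1C bar shown is lower than its control bar, from 69 against 107 at Stat3 to 23 against 39 at Stat5b, and 4 regions are not listed in H1C.

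The kinase genes had log2 ratios that lay close together. Jak1, the kinase of gp130, interferon and common gamma chain receptors, lies at chromosome 4, 101151974 to 101265282 (mm10, minus strand), and the region over its start had a summit pileup of 28 in H1C and 57 in control. As a log2 ratio, H1C over control and scaled for depth, this was -1.17 (exact conditional binomial 95% interval -1.88 to -0.49). Jak2, the kinase of the erythropoietin and interleukin 3 receptors, lies at chromosome 19, 29251803 to 29313095 (plus strand), and its start region had 31 in H1C and 61 in control, a log2 ratio of -1.12 (-1.79 to -0.47). Both starts were open in each library and lower in H1C by more than counting error. Tyk2, a kinase of type I interferon and interleukin 12 receptors, lies at chromosome 9, 21104068 to 21131393 (minus strand), with 40 in H1C and 82 in control, a log2 ratio of -1.18 (-1.76 to -0.62). The intervals of the 3 ratios overlapped almost wholly, so no difference among the kinase genes was detectable.

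The Jak2 start had the largest drop in width of the shared gene-end regions. Its region ran from 29251539 to 29251810 in H1C (272 bp) and from 29251191 to 29252035 in control (845 bp). Of the 300 bases around the start, 258 lay in the H1C region and all 300 in the control region. The letters of that window (RefSeq, GRCm38.p6, chr19:29251553-29251852, plus strand, 250 bases before to 50 after the start) are shown because they hold the boundary, with the bases inside the H1C region in capitals.
Jak2: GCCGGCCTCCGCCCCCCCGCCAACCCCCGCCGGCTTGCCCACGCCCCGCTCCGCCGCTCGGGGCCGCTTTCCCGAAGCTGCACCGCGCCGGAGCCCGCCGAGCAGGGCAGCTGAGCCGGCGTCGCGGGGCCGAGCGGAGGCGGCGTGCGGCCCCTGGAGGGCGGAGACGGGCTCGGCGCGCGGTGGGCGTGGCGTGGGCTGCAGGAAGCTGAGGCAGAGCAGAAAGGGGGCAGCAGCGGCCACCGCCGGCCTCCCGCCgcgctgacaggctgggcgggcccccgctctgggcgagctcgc
The capitals end just past the start, at 29251810, where the H1C region ended while the control region went on into the gene. The window had a GC content of 81.0%, higher than 99.1% of the promoter windows of protein-coding genes. At Jak1 the region was 334 bp wide in H1C and 772 bp in control, whereas at Tyk2 the widths were 429 bp in H1C and 446 bp in control. The listed region was far narrower in H1C at Jak1 and Jak2 and little changed at Tyk2.

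Among the STAT genes, Stat3 had the strongest region of all 10 genes and Stat5a the lowest ratio of the gene-end regions. Stat3 carries signals of interleukin 6 and granulocyte colony-stimulating factor and lies at chromosome 11, 100886806 to 100939594 (minus strand). Its start region had a pileup of 69 in H1C and 107 in control, a log2 ratio of -0.78 (-1.23 to -0.32). In control this pileup was higher than that of 98.6% of all gene-end regions, and the region stayed wide, at 801 bp in H1C and 880 bp in control. Stat5a, which carries signals of thrombopoietin, erythropoietin and interleukin 3, lies at chromosome 11, 100859351 to 100885169 (plus strand). It has 2 annotated starts, and the region lay over the second, with 31 in H1C and 69 in control, a log2 ratio of -1.30 (-1.96 to -0.67). Of all shared gene-end regions, 5.30% had a lower ratio, but among the 1702 with a control pileup of 61 to 80 the median was -0.91, inside the Stat5a interval. No region was listed over the first start in either library.

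Stat5b, the close relative and direct neighbour of Stat5a, shows why gene spans can hide a start. Its span runs from 100780731 to 100859004 on chromosome 11 (minus strand), while the RefSeq promoter windows lie at chr11:100850532-100850831 and chr11:100822521-100822820, inside it. The region over the first window had a pileup of 23 in H1C and 39 in control, a log2 ratio of -0.90 (-1.71 to -0.12), with widths of 205 bp in H1C and 791 bp in control. The region over the second was listed in control only, with a pileup of 33. The accessible Stat5b start was thus kept and lower in H1C, although the gene counted as having no gene-end region. The first window (GRCm38.p6, minus strand) is printed because it is the Stat5b start that both libraries share, with the bases inside the H1C region in capitals.
Stat5b: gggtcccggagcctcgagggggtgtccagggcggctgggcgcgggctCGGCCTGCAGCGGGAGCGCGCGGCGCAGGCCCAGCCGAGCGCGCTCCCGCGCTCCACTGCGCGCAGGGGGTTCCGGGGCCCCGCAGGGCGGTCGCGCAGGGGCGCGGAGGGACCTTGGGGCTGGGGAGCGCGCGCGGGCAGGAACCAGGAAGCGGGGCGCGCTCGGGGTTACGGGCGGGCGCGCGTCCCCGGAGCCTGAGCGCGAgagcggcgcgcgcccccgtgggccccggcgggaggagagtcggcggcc
Of these 300 bases, 205 lay in the H1C region and 295 in the control region, and the GC content was 82.7%, higher than 99.5% of promoter windows. The bases dropped from the listed region in H1C lay on both sides of the part that was kept.

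Of the inhibitor genes, Socs1, Socs3 and Cish had an open start in both libraries, and Socs2 had no gene-end region in H1C. Socs1, whose product binds and blocks the kinases directly, lies at chromosome 16, 10783808 to 10785536 (minus strand). Its start region had a pileup of 65 in H1C and 103 in control, a log2 ratio of -0.81 (-1.28 to -0.34). A second control region, 848 bp upstream with a pileup of 54, was not listed in H1C. Socs3, whose product binds gp130 and the granulocyte colony-stimulating factor receptor, lies at chromosome 11, 117966079 to 117970336 (minus strand), with 50 in H1C and 85 in control at its start, a log2 ratio of -0.91 (-1.44 to -0.39). Its second gene-end region had 32 in H1C and 44 in control, a log2 ratio of -0.60 (-1.31 to 0.09), the only shared gene-end ratio of the 9 whose interval took in 0. Cish, a STAT5 target whose product CIS competes for STAT5 docking sites, lies at chromosome 9, 107296659 to 107302784 (plus strand), with 38 in H1C and 62 in control at its start, a log2 ratio of -0.85 (-1.47 to -0.24). A region 318 bp past the other end of Cish, with a pileup of 47, was listed in control only. Socs2, whose product restrains growth hormone receptor signalling, lies at chromosome 10, 95383903 to 95417321, and its gene-end region, from 95416713 to 95417470, was listed in control only with a pileup of 34. Socs1 and Cish thus each had a second region that H1C did not list.

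Of the 9 genes with a gene-end region in control, all but Jak1 ranked higher by pileup than by the authors' fold, which divides the pileup by the local background after adding 1 to both. In control the background under the start was 21.74 at Socs1, 13.98 at Socs3, 11.96 at Cish, 10.0 at Tyk2 and 9.18 at Jak2, against a median of 6.16 over all control gene-end regions. By pileup Socs1 was above 97.9% of control gene-end regions, but by fold, at 4.57, above 26.3%. Jak2 was above 72.2% by pileup and 48.0% by fold, and Tyk2 above 89.9% by pileup and 66.8% by fold. Stat3, with a background of 10.08, was above 98.6% by pileup and 89.1% by fold. At Socs1 the background was 14.62 in H1C and 21.74 in control, and of 10147 control gene-end regions 4 had a higher one. The Socs1 background was 3.32 times the genome background in H1C and 5.45 times in control, where it passed the bound of 5 times that set high-copy regions aside from the values over all regions. The copy number of the locus was not examined.

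**Figure D2:**
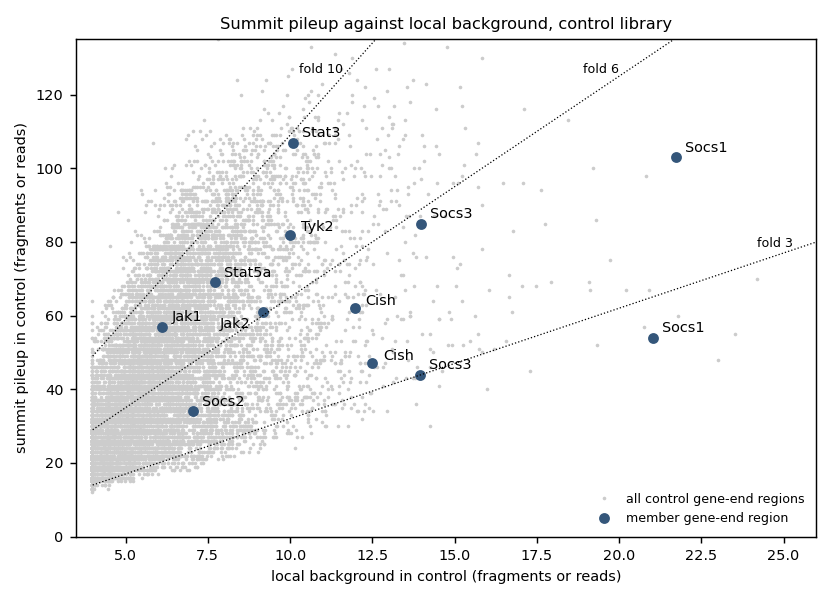
Summit pileup (y axis) against local background (x axis), both in fragments or reads, for the control library, with all 10147 control gene-end regions in grey (1 lies outside the axes), the gene-end regions of the 10 genes in blue and dotted lines of equal fold. Jak1 and Stat5a sit near a fold of 8, while both Socs1 regions lie far to the right at backgrounds above 21.

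The STAT motif was present in the promoter windows of Socs3 and Cish and in no other window of these genes. The search was for TTCNNNGAA, which reads the same on both strands, in the 11 RefSeq windows of 9 of the genes. The motif was in 2 of the 11 (18.2%), against 7.69% of the 21263 windows of protein-coding genes and 8.3% of all 32851 RefSeq windows. A count of 2 is too few to set these genes apart from those shares. The 11 windows were overlapped by a control region in 10 cases, against 43.3% of the windows of protein-coding genes, and 9 of those 10 also by an H1C region, against 71.4%. A match is a description and not a binding site. The 2 windows are printed (GRCm38.p6; Socs3 at chr11:117969317-117969616, minus strand; Cish at chr9:107296409-107296708, plus strand) because they show where the motif lies within the open region, with the motif in capitals.
Socs3: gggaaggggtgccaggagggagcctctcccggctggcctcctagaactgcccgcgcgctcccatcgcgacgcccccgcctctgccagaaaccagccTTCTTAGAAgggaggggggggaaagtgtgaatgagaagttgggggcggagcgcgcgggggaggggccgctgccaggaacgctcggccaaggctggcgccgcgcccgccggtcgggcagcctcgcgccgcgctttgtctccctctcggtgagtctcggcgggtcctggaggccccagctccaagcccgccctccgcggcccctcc
Cish: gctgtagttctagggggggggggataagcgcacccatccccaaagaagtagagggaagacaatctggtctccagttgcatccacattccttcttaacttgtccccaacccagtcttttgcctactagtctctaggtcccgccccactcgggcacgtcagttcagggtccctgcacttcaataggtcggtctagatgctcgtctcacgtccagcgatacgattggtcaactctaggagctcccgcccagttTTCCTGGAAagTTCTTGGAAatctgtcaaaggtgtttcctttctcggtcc
In Cish the 2 matches, TTCCTGGAA and TTCTTGGAA, begin 1 and 12 bases from the start, counted from 1 at the first transcribed base. Both lay inside the open region of each library, with centres 22 and 33 bp from the H1C summit and 32 and 43 bp from the control summit. In Socs3 the match TTCTTAGAA begins at position -154, upstream of the start. It lay inside the control region, which ended at 117969564, and outside the H1C region, which ended at 117969479, so the listed open region no longer reached the motif in H1C. The Socs3 summits of the libraries lay 1 bp apart.

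Summits lay at nearly the same place in both libraries, and most regions were narrower in H1C. Over the 9 shared gene-end regions the summits of H1C and control lay 1 to 100 bp apart, with a median of 26 bp, against 25 bp over all 6379 shared gene-end regions. Width had a median of 369 bp in H1C and 665 bp in control, and 8 of 9 were narrower in H1C. Over all shared gene-end regions the medians were 392 bp in H1C and 597 bp in control. These positions and widths do not set the 10 genes apart.

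Over the shared gene-end regions, the median log2 ratio was -0.91, and all 9 values were below 0, as were 98.9% of those over all genes. The whole interval was below 0 at 8 of 9, against 74.8% of all shared gene-end regions, which had a lower median control pileup (69 over these genes and 57 over all). The median over all genes was -0.84 (quartiles -1.04 and -0.65), so the ratios of these genes, from -1.30 at Stat5a to -0.60 at Socs3, ran from below the lower quartile to just above the upper one. These medians do not use the same filter. The values over all genes leave out regions with a local background at least 5 times that of the genome. The Socs1 start, at 5.45 times in control and with a log2 ratio of -0.81, was kept among the 9. The intervals of the kinase, STAT and inhibitor starts overlapped each other, so no order among them was detectable at this depth. With depth taken from the local background under shared summits the median was -0.59, and on the authors' fold it was -0.43.

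**Figure D3:**
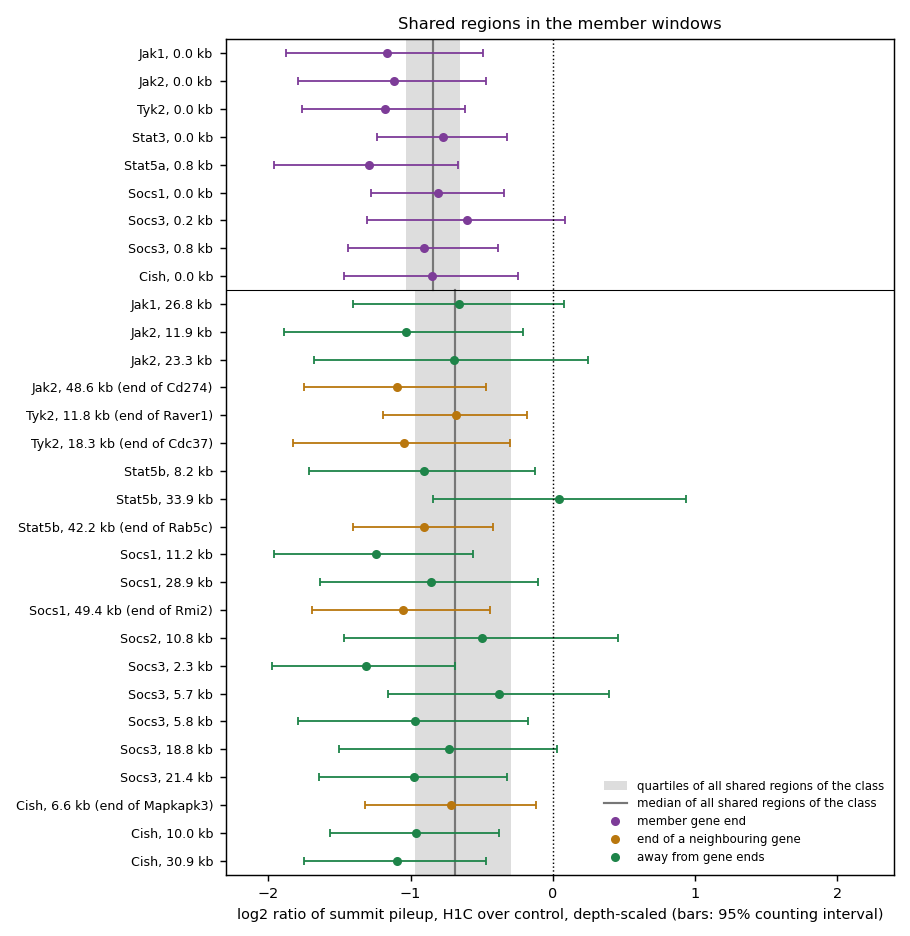
Depth-scaled log2 ratio of summit pileup, H1C over control (x axis), for each of the 30 shared regions of the gene windows (rows, with the distance to the nearest end of the named gene), points with exact 95% counting intervals, and the median and quartiles of all shared regions of each class in grey. Every gene-end point lies left of 0, and of the other regions 1, inside Stat5b, lies just right of 0 at 0.04.

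Away from the gene ends, most open regions of the control cells were not listed in H1C. The windows of the 10 genes held 35 different regions in H1C and 80 in control. Of the control regions, 6 fell in the windows of several genes, since Stat3, Stat5a and Stat5b lie side by side. Counted gene by gene, 26 of 77 control regions over 1 kb from the gene's own ends were shared (33.8%, 23.4 to 45.4), against 37.3% under the same rule over all protein-coding genes. Without regions at neighbouring gene ends, 15 of 54 different regions were shared (27.8%, 16.5 to 41.6), against 20.8% over all genes. Both shares lay close to the share over all genes. In the other direction, 26 of 32 H1C regions over 1 kb from the gene's own ends were also listed in control (81.2%, 63.6 to 92.8), against 89.5%. The 21 different shared regions had a median log2 ratio of -0.91, and 6 of them lay at ends of neighbouring genes. The 15 away from the ends of every gene span had a median of -0.90, against -0.69 over all such regions. The median control pileup was 39 in both. Of these 15, 14 were below 0, against 88.1%, and 9 had the whole interval below 0, against 48.0%. Inside the bodies of the 10 genes 2 of 17 were shared (11.8%, 1.46 to 36.4), against 21.0% inside gene bodies over all genes. Outside the bodies of the 10 genes 13 of 37 were shared (35.1%, 20.2 to 52.5). Over all genes 20.5% were shared outside every protein-coding gene body. The 37 can include regions inside neighbouring genes, so these sets are not alike. The intervals of the shares inside and outside the 10 gene bodies overlapped. Ends here are those of gene spans, so the regions at the Stat5b starts count among the 17, and the shared one among the 2.

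**Figure D4:**
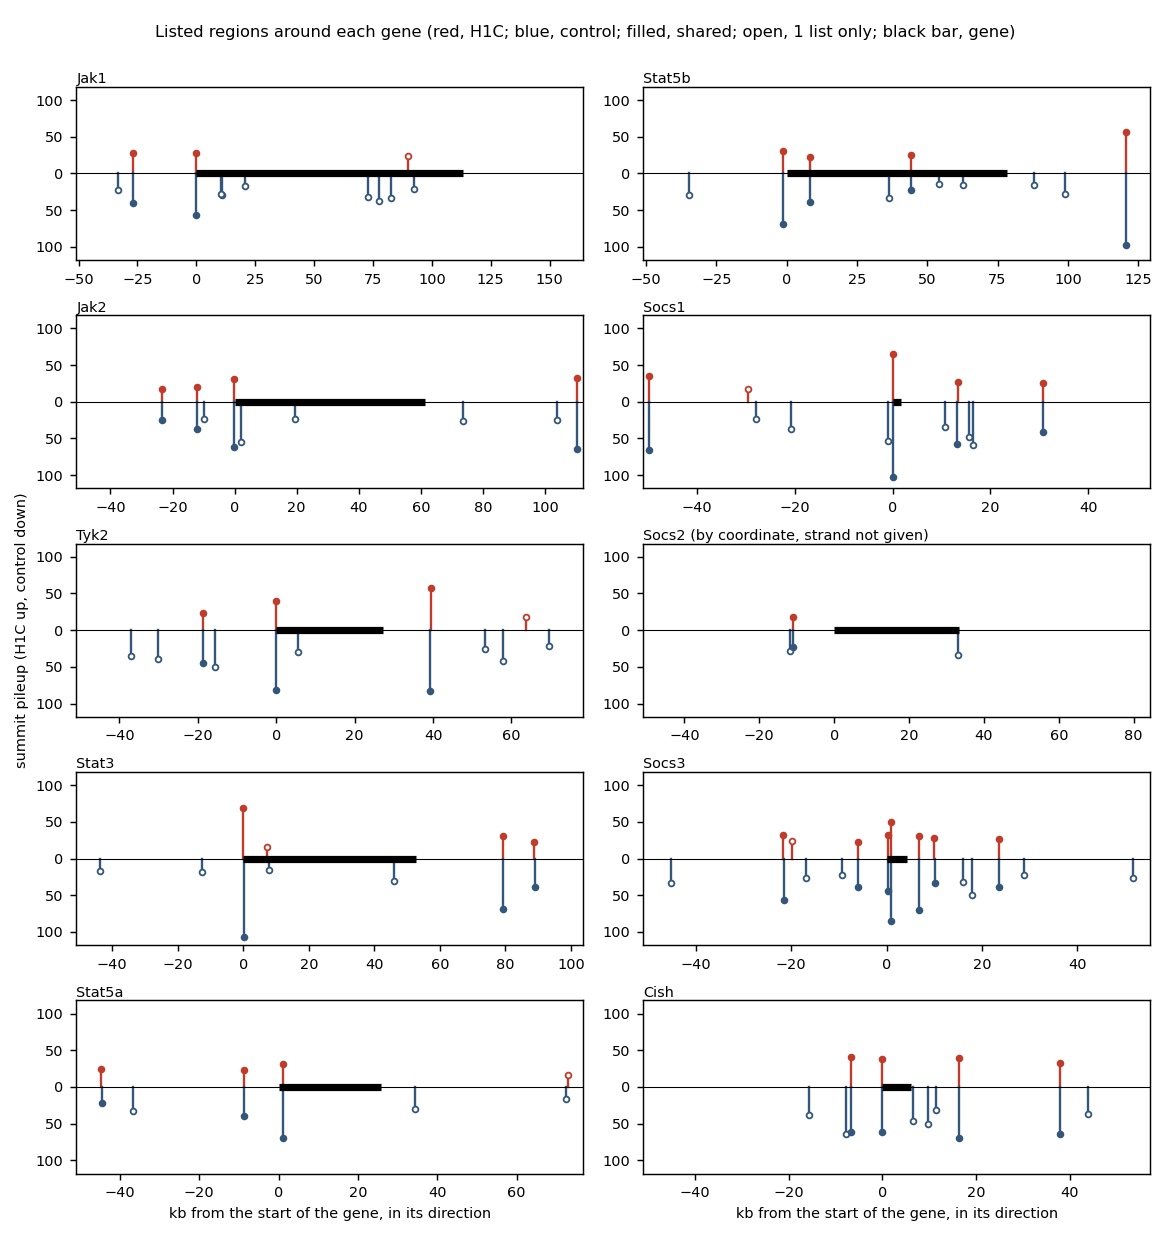
Summit pileup of every listed region (y axis, H1C upwards in red, control downwards in blue) by distance from the gene start (x axis, kb). Each gene is drawn in its own direction, except Socs2, whose strand was not given and which is drawn by coordinate. The gene is a black bar, shared regions are filled and regions of a single list are open. Jak1 has 7 open blue points along its body and none filled beyond the start within it, while Socs3 has filled points on both sides of the gene.

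Inside Jak1, over 1 kb from its ends, no control region was shared. The 7 regions there had control pileups of 17 to 38, the strongest fold (4.96) belonging to the region from 101182583 to 101182960 with a pileup of 34, and 0 of 7 were listed in H1C. Over all genes, 21.0% of regions inside gene bodies were shared, and a count of 7 is too few to set Jak1 apart from that share. One region inside Jak1, from 101175379 to 101175602, was listed in H1C only, with a pileup of 24 and a fold of 4.58, the highest fold of the 5 such regions of the windows. A region 26770 bp upstream of Jak1 was shared, with pileups of 28 in H1C and 40 in control (log2 ratio -0.66, -1.41 to 0.08), and its width was 323 bp in H1C and 1271 bp in control.

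Around Jak2 and Tyk2, some of the stronger control regions were not listed in H1C. At Jak2 a region in the gene 1996 bp from the start had a control pileup of 55 and was not listed in H1C, whereas 60.7% of all control regions away from gene ends with a pileup of 41 to 60 were shared. Upstream of Jak2, regions 11903 and 23266 bp away were shared. They had pileups of 20 and 17 in H1C and 37 and 25 in control. Around Tyk2 the control-only region with the highest fold, 5.99, lay 29789 bp from the gene with a pileup of 39, and another, 15395 bp away, had a pileup of 50. All 3 shared regions of the Tyk2 window lay at the start of Tyk2 or at ends of neighbouring genes.

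In the Stat3 and Stat5 cluster, the single region with no lower pileup in H1C lay inside Stat5b. From 100814526 in H1C and 100814604 in control, it had pileups of 25 in H1C and 22 in control, a log2 ratio of 0.04 (-0.84 to 0.94), which is not detectably different from 0 and also not from the median of -0.35 over regions away from gene ends with a control pileup of 21 to 30. In the body of Stat3, 0 of 2 control regions were shared, against 21.0% inside gene bodies over all genes, the stronger having a pileup of 30. A region in Stat3 from 100932337 to 100932548, with a pileup of 16, was listed in H1C only, and the next control region inside the gene, not listed in H1C, also had a pileup of 16.

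Socs3, Socs1 and Cish stood in the densest surroundings. The Socs3 window held 8 regions in H1C and 14 in control, or 13.43 control regions per 100 kb, more than around 99.8% of protein-coding genes, where the median was 2.11. Both gene-end regions and 5 of the 12 others were shared, against 37.3% of such other regions over all genes. Beside the start, the strongest shared region lay 2306 bp past the end of the gene, with a pileup of 31 in H1C and 70 in control and a log2 ratio of -1.32 (-1.98 to -0.69), the lowest of all 30 shared regions. Further shared regions lay 5685, 5788, 18821 and 21385 bp from the gene, with pileups of 28, 22, 26 and 32 in H1C and of 33, 39, 39 and 57 in control. The region at 5685 bp had a log2 ratio of -0.38 (-1.16 to 0.39), not detectably different from 0, and the highest control-only pileup was 50, at 13571 bp. Around Cish, 3 of 8 control regions over 1 kb from its ends were shared, near the 37.3% over all genes, among them those 9980 and 30941 bp past the gene, with pileups of 39 and 33 in H1C and 69 and 64 in control.

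The Socs1 and Socs2 windows differed in how much they held. Around Socs1, with 9.83 control regions per 100 kb, 3 of 8 regions over 1 kb from its ends were shared, again near 37.3%. Regions 11249 and 28948 bp from the gene had pileups of 27 and 25 in H1C and 58 and 41 in control. The control-only region with the highest fold, 5.69, lay 20561 bp away with a pileup of 37, although a control-only region 14653 bp away had the higher pileup of 59. Around Socs2, 1 of 2 control regions over 1 kb from its ends was shared, against 37.3% over all genes. It lay 10812 bp from the gene, with pileups of 18 in H1C and 23 in control and a log2 ratio of -0.50 (-1.47 to 0.46). Socs2 was thus the gene with the fewest listed regions of the 10.

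Whether a region was shared followed its strength in control. Of the gene-end regions, all 7 with a control pileup above 60 were shared, against 98.2% of all gene-end regions at 61 to 80 and 100% above 80. At 41 to 60, 2 of 4 were shared, against 83.5%, and the single region at 31 to 40, at Socs2, was not, against 46.0% shared over all genes. Of the other regions away from neighbouring ends, 0 of 6 were shared at control pileups up to 20, against 8.58%, and 3 of 18 at 21 to 30, against 11.6%. At 31 to 40, 6 of 18 were shared, against 25.8%, at 41 to 60, 3 of 9, against 60.7%, and at 61 to 80, 3 of 3, against 94.2%. The exact intervals of these shares took in the shares over all genes, as at 41 to 60, with 7.49 to 70.1%.

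**Figure D5:**
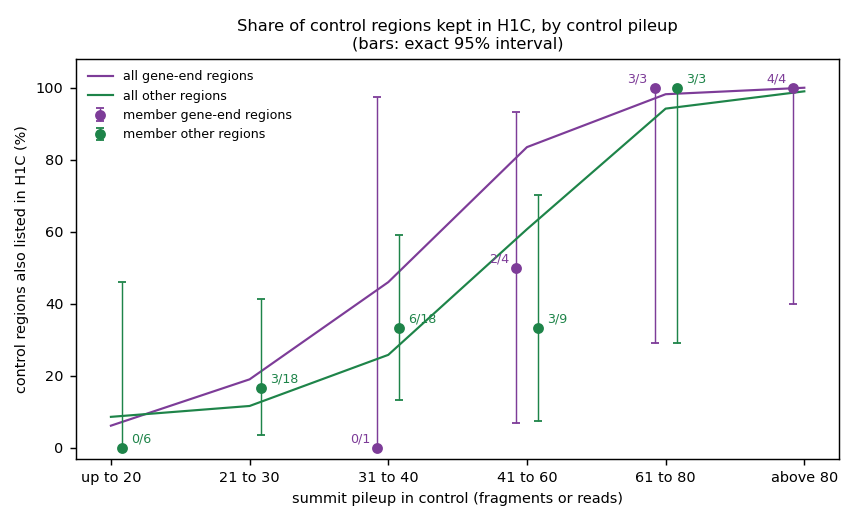
Share of control regions also listed in H1C (y axis, %) by control summit pileup (x axis), with lines for all gene-end regions and all regions away from gene ends, and points for the regions of the 10 genes with exact 95% intervals and counts. The lines climb from 6.13% and 8.58% to 99.0% or more, and the intervals of the points take in the line of their class in every step.

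Around these genes, the rest of the pathway had gene-end regions kept in H1C at shares whose intervals all took in that of all genes. The median ratios of these lists take 1 ratio per gene. Counted by gene in that way, the median over the 10 genes was -1.01, from the 8 listed in both libraries. The difference between this median and those of the lists was not tested. Of the other JAK, STAT and SOCS genes, all 8 with a control gene-end region were also listed in H1C (exact interval from 63.1%), against 71.0% of all genes, with a median log2 ratio of -0.70. Stat2, a transcription factor of type I interferon signalling, had 48 in H1C and 88 in control, Socs5 had 57 in H1C and 90 in control, and Socs4 had 38 in H1C and 61 in control, while Stat4 had no gene-end region in either list. Receptors that signal through the kinases were kept at 10 of 17 genes (58.8%, 32.9 to 81.6), with a median log2 ratio of -0.73. The interferon receptor genes Ifnar1, with 55 in H1C and 91 in control, and Ifngr1, with 60 in H1C and 98 in control, and the gp130 gene Il6st, with 31 in H1C and 52 in control, were kept. Of the 7 receptor genes listed in control alone, Il2rg, Il7r and Il2rb had the highest folds, with pileups of 38, 25 and 32, and the others were Epor, Il6ra, Csf2rb and Il10ra. Ifnar2 and Il10rb are neighbours and share a region.

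Other inhibitors were kept at 9 of 11 genes (81.8%, 48.2 to 97.7), with a median log2 ratio of -0.82. Pias1, a SUMO ligase that restrains STAT proteins, had 42 in H1C and 72 in control, the ubiquitin ligase gene Cblb had 53 in H1C and 85 in control, and the phosphatase gene Ptpn2 had 49 in H1C and 68 in control. For the phosphatase genes Ptprc and Ptpn6 the gene-end region was in control alone, with pileups of 32 and 36. Target genes of STAT3 or STAT5 were kept at 9 of 12 (75%, 42.8 to 94.5), with a median log2 ratio of -0.92. Birc5, an inhibitor of cell death, had 47 in H1C and 72 in control, the growth arrest gene Gadd45g had 39 in H1C and 84 in control, and the kinase gene Pim1 had 56 in H1C and 96 in control. Pim2, Ccnd2 and Ccnd1 were in control only, with pileups of 58, 50 and 22, and Ccnd3 had 38 in H1C and 34 in control, the single gene of these lists whose ratio, 0.02 (-0.69 to 0.73), was not below 0. No gene of the 4 lists had a gene-end region in H1C only.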

How the data were processed

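ATAC-seq of 1 H1C and 1 control library, grouped by their treatment labels, was compared. The submitters' processing notes name mm10, featureCounts, MACS2, Picard, Bowtie2 2.2.9 and Trim Galore 0.4.4. The settings, the treatment of duplicates and a cut-site shift of reads are not given in the sources used here, and each can change summit heights. The regions of each library come as a separate deposited list. Its fold, as the authors deposited it, is a ratio of summit pileup over local background, 1 being added to both. Per-region −log10 p and −log10 q values were taken as deposited, with −log10 q of at least 1.34 in H1C and 1.31 in control. The deposited score repeats −log10 q, rounded down after a scaling, for nearly all entries and was not used.

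No read totals were given, so pileup and local background were solved jointly from the fold and −log10 p under a Poisson model (tested on simulated data). A whole-number pileup was accepted within a relative error of 0.0001, which held for 13155 of 13156 H1C and 32005 of 32005 control entries. Depth was scaled by the lowest local background of each list. Intervals can be too narrow because amplified fragments are not independent molecules. Gene spans (10 of 10 genes matched) and promoter windows (9 of 10) came from RefSeq GRCm38.p6, the build mm10 is drawn from, without exons. Log2 ratios over all genes leave out regions with a local background at least 5 times that of the genome. Those of the 10 genes keep the Socs1 start, which passes that bound in control. Genes and lists were chosen with earlier results of these data known. All 10 genes are named, as are their shared regions, H1C-only regions and the control-only region of highest fold per window. From the wider lists, up to 3 genes listed in both libraries and 3 in control alone are named by fold. Some genes of the lists are counted but not reported by name here. Other control-only regions, Stat4, Ifnar2, Il10rb, Epor, Il6ra, Csf2rb, Il10ra and Ccnd3 were named after their values were seen. Alternatives covered flanks, gene-end windows, thresholds, overlap rules and depth ratios. Software was matplotlib 3.10.9, scipy 1.17.1, pandas 2.3.3, numpy 2.4.6 and Python 3.11.15.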

Additional observations from a re-analysis of the deposited data

How the results depend on the processing

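No paired analysis was possible because there was 1 library in each group, and for that reason none could be left out. Over 6 results, 30 alternatives were computed: 27 left the value inside its interval (counts within 1.5 times), 3 moved it and 0 changed its sign. For the median ratios, the interval used was that of the summed pileups and not of the median itself. It ran from -1.13 to -0.76 at gene ends and from -1.03 to -0.74 at the other regions. With depth from the local background under shared summits, the median log2 ratio was -0.59 at gene ends and -0.59 at the other regions, and on the authors' fold it was -0.43 at gene ends; the cause was not tested. Without depth scaling it was -0.77 in both classes. The kept share of gene-end regions ran from 50.0% with 50% reciprocal overlap to 77.8% with a gene-end window of 500 bp, and it was 76.9% with annotated transcript starts in place of gene ends, an alternative chosen after seeing the data. The kept share of other regions ran from 24.6%, at a −log10 q of at least 5, to 32.4%. At a pileup near 30 in H1C the interval of a ratio spans more than 1 on the log2 scale.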

Other observations

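Several control regions within 50 kb of the 10 genes lay at the ends of neighbouring genes, and 6 of 14 of these were also listed in H1C (42.9%, exact 95% interval 17.7 to 71.1), against 62.9% of all control gene-end regions. The endosome gene Rab5c, near Stat5b, had 57 in H1C and 97 in control, and the RNA-binding protein gene Raver1, near Tyk2, had 57 in H1C and 83 in control. Cd274, which encodes the checkpoint ligand PD-L1 and lies near Jak2, had 33 in H1C and 64 in control, and Rmi2, a genome stability gene near Socs1, had 35 in H1C and 66 in control. The gene of the kinase co-chaperone Cdc37, near Tyk2, had 24 in H1C and 45 in control. Mapkapk3, next to Cish, had 2 control regions, of which the weaker, with a pileup of 61, was shared with 41 in H1C, while the stronger, with 64, was listed in control only. That region had the highest pileup of the control-only regions of the windows, and 98.2% of all control gene-end regions with a pileup of 61 to 80 were shared.

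The 5 regions listed in H1C only had pileups of 16 to 24. Besides those in Jak1 and Stat3, they lay at the facing ends of Zglp1 and Fdx2 near Tyk2 (pileup 18), 29396 bp from Socs1 (pileup 18) and 19708 bp from Socs3 (pileup 24). The 11 promoter windows, from 9 of the 10 genes (Socs2 had none), had a median GC content of 63.3%. Their values ran from 47.3% at the second Stat5b start to 82.7% at the first. The median was 62.0% over the windows of protein-coding genes that a control region overlapped.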
